A study of Arabidopsis thaliana with 8 samples.

Results

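The 7 genes described here are Arabidopsis thaliana homeodomain-leucine zipper (HD-Zip) transcription factors linked to the shade response and to seedling elongation. They were taken by a list of locus numbers, and all 7 were found among the 27416 loci analysed, each with 1 transcript model. ATHB2 (AT4G16780, listed as HB-2), HAT1 (AT4G17460), HAT2 (AT5G47370), HAT3 (AT3G60390) and ATHB4 (AT2G44910, listed as HB4) belong to class II of the family. HB52 (AT5G53980) and HB-1 (AT3G01470, also called ATHB1) belong to class I. The libraries came from plants under a blue light condition and under a dark condition, and each condition had 2 ribosome footprint and 2 mRNA libraries. Genotype, tissue, age, light intensity and duration are not given in the sources used here, and nothing states that replicates came from separate plants, so p-values measure only the spread between these libraries, which may be technical.

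HD-Zip proteins join a DNA-binding homeodomain to a leucine zipper, through which they pair before binding DNA. Class II factors act largely as repressors. ATHB2 is the classic early marker of vegetation shade. Phytochrome-interacting factors (PIFs), many of which are removed when phytochrome is activated by light, drive its transcription. ATHB2 promotes elongation. HAT1, HAT2, HAT3 and ATHB4 are its close relatives, and HAT3 and ATHB4 also act with ATHB2 in the shade response and in leaf polarity. HB-1 promotes hypocotyl growth, and its mRNA leader is known to carry a conserved upstream open reading frame (uORF), a short reading frame that can lower translation of the main one. HB52 has been linked to seedling development in light and to ethylene and auxin signalling in the root.

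Ribosome profiling sequences the stretches of mRNA left after RNase I has removed what no ribosome covers, so the footprint level of a gene counts ribosomes on its model. Levels are given as CPM, which are counts scaled to a common library size after TMM normalization. Footprint libraries held 2888624 to 4919808 counts and mRNA libraries 688630 to 847469. Nuclear loci had only 331867 to 436399 counts per mRNA library, so the 7 genes were measured far more precisely by footprints than by mRNA. Over all 7 genes, 809 to 1571 counts per footprint library stood against 36 to 143 counts per mRNA library. Root and root hair markers are given beside the results because HB52 acts in roots: all 10 had footprint counts in both conditions, and their summed level was 350 to 354 CPM in blue light and 462 to 504 CPM in the dark. Their summed mRNA level was 332 to 348 CPM in blue light and 342 to 433 CPM in the dark. Of the 7 markers tested, 4 fell and 1 rose in footprints, against 16.9% and 20.9% of all loci tested. Their part in the changes below was not tested, and in whole samples fewer cells of a type and less RNA per cell cannot be told apart.

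Footprints of 5 of the 7 genes fell in blue light, namely ATHB2, HB52, HAT3, ATHB4 and HAT2, and none rose (edgeR quasi-likelihood test, Benjamini-Hochberg adjusted p under 0.05). Among all 15788 loci tested, 37.8% were called in either direction and 16.9% were called lower and 20.9% higher. The median log2 fold change of the 7 genes was -1.01, against -0.018 over all loci tested. The blue-light and dark libraries did not overlap in any of the 7 genes, against 67.5% of all loci tested without overlap. In 6 of the 7 genes both blue-light libraries lay below both dark libraries, an arrangement found in 33.9% of all loci tested. The summed footprint level of the 7 genes was 192 and 236 CPM in blue light and 454 and 460.5 CPM in the dark.

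**Figure D1:**
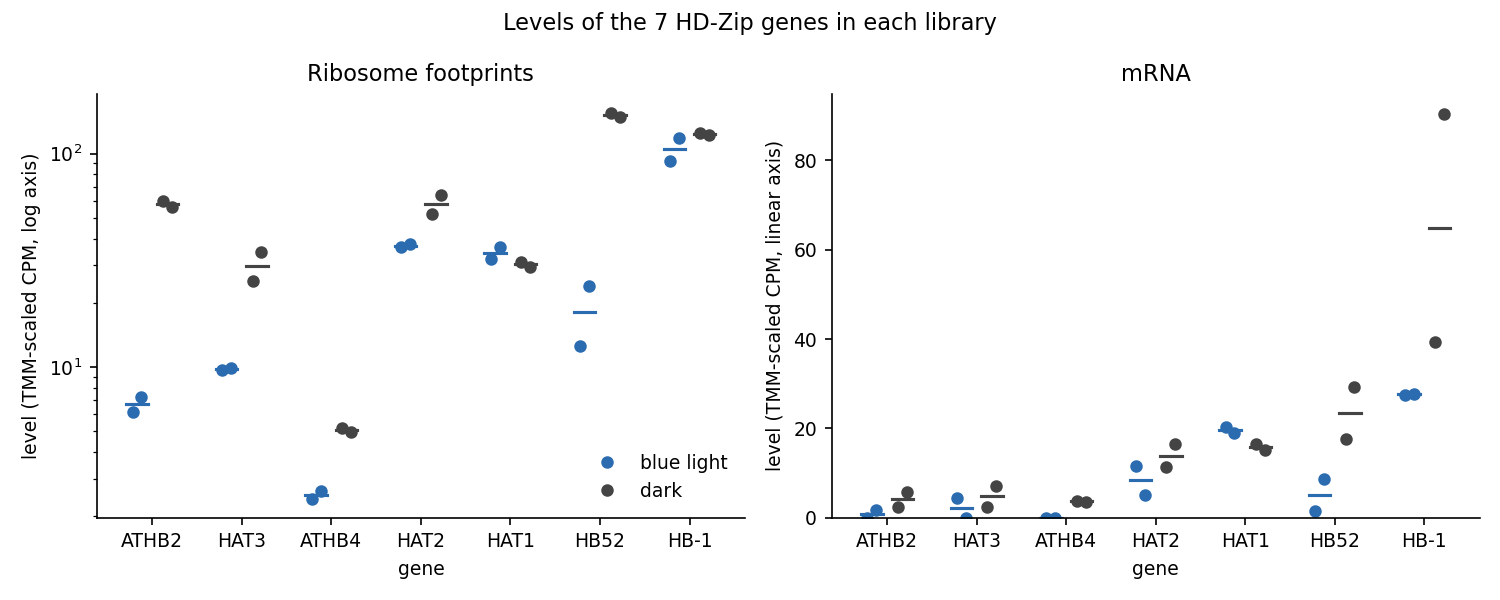
Level of each of the 7 genes in each library, as TMM-scaled CPM of ribosome footprints (left, log axis) and mRNA (right, linear axis). Points are libraries, with blue light left of dark, and bars are means of 2 libraries. ATHB2 and HB52 footprints were 8.72 and 8.65 times lower in blue light by the fitted change, while HAT1 lay slightly higher in blue light.

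ATHB2 had the largest fitted fall of the 7 genes. Its footprint level was 6.17 and 7.28 CPM in the blue-light libraries, against 60.1 and 56.6 CPM in the dark libraries, from 28 and 25 counts against 186 and 193. The groups lay far apart and the replicates close together. The log2 fold change was -3.13 ± 0.17 (SE, n = 2 each, edgeR adjusted p = 6.30e-15), an 8.72-fold lower level in blue light. Ordered by fitted change, it was number 25 from the bottom of the 15788 loci tested.

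HB52 fell by nearly the same amount although it belongs to another class. It had 12.6 and 23.9 CPM in blue light, against 156 and 149 CPM in the dark, from 57 and 82 counts against 481 and 507. The dark replicates were close, while the blue-light replicates differed by more than the dark ones, but no blue-light library came near a dark one. The log2 fold change was -3.11 ± 0.15 (adjusted p = 1.33e-16, number 28 from the bottom). This SE draws on a spread shared over loci and may understate that of HB52. The DESeq2 Wald test gave -3.07 ± 0.43. Without blue-light footprint replicate 1 the value was -2.66, and without replicate 2 it was -3.59.

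HAT3 and ATHB4, the other class II genes tied to leaf polarity, had smaller fitted changes. HAT3 had 9.69 and 9.90 CPM in blue light, against 25.2 and 34.6 CPM in the dark. This was a log2 fold change of -1.62 ± 0.20 (adjusted p = 1.02e-07), a 3.07-fold lower level. ATHB4 was the least abundant of the 7 genes, with 2.42 and 2.62 CPM in blue light and 5.17 and 4.98 CPM in the dark. These levels rested on 11 and 9 counts in blue light and on 16 and 17 counts in the dark. The replicates lay close to each other, and the log2 fold change was -1.01 ± 0.38 (adjusted p = 0.0367). The ATHB4 call was lost without any 1 of the 4 footprint libraries: adjusted p was 0.186 and 0.114 without blue-light replicate 1 and 2, and 0.168 and 0.161 without dark replicate 1 and 2. It was also lost with the DESeq2 Wald test, at an adjusted p of 0.352. The value itself lay between -1.05 and -0.94 in all 10 alternatives tried.

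HAT2, which responds to auxin, and HAT1, which is linked to brassinosteroid signalling, gave different results. HAT2 had 36.6 and 37.6 CPM in blue light, against 52.4 and 64.2 CPM in the dark, a log2 fold change of -0.66 ± 0.13 (adjusted p = 0.000134). HAT1 had 32.2 and 36.4 CPM in blue light, against 31.0 and 29.6 CPM in the dark. It was the only one of the 7 genes with both blue-light libraries above both dark ones, but its log2 fold change of 0.17 ± 0.14 did not pass (adjusted p = 0.385). The class II genes are close relatives, and how reads that match more than 1 of them were counted is not given in the sources used here, so their values carry that uncertainty.

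HB-1 had a high footprint level in both conditions. It had 92.3 and 118 CPM in blue light, against 125 and 122 CPM in the dark. The log2 fold change was -0.24 ± 0.10, which did not pass (adjusted p = 0.0589). The value depended on the blue-light library: it was -0.41 with an adjusted p of 0.00772 without blue-light footprint replicate 2, and -0.06 with an adjusted p of 0.736 without replicate 1.

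**Figure D2:**
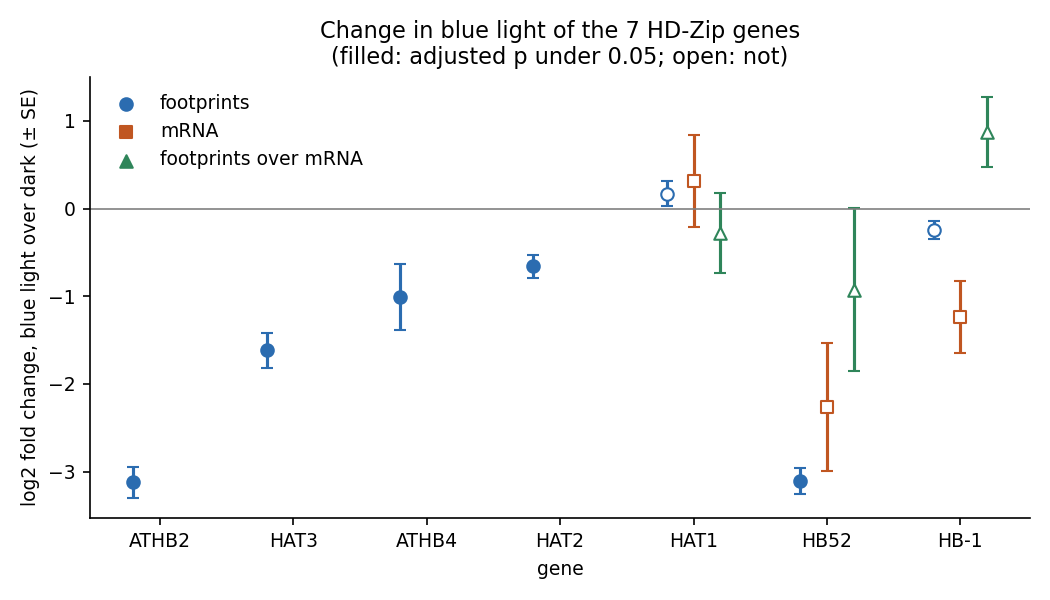
Log2 fold change of blue light over dark for each gene, with its SE, for footprints (circles), mRNA (squares) and footprints over mRNA (triangles). Filled symbols passed an adjusted p of 0.05 and open ones did not. Genes with no square or triangle fell below the mRNA count minimum. Footprint values run from -3.13 for ATHB2 to 0.17 for HAT1.

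The order of the changes can be read without any scaling between libraries, by dividing the counts of 2 of the genes within each library. There were 0.192 and 0.200 ATHB2 footprints for each HAT1 footprint in blue light, against 1.94 and 1.91 in the dark. ATHB2 was thus below HAT1 in blue light and above it in the dark, and the mean ratio differed 9.82-fold. For ATHB2 over HAT2 the ratios were 0.169 and 0.194 in blue light and 1.15 and 0.881 in the dark. For ATHB2 over HAT3 they were 0.636 and 0.735 in blue light and 2.38 and 1.64 in the dark. The gene with the lower fitted change was placed on top and the counts are the same, so the ratios are no separate test of the order. In all 3 pairs the blue-light ratios lay below both dark ones. For ATHB2 over HB52, by contrast, the ratios overlapped, at 0.491 and 0.305 in blue light and 0.387 and 0.381 in the dark.

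Neighbours in the order of fold changes were not all apart. The log2 fold change of HB52 lay 0.01 above that of ATHB2, with a combined SE of 0.23, so the pair did not differ beyond their errors. ATHB4 lay 0.61 above HAT3 with a combined SE of 0.43, and HAT2 0.35 above ATHB4 with a combined SE of 0.40, each within 1.5 times its error. HB-1 lay 0.42 above HAT2 and HAT1 0.41 above HB-1, with combined SEs of 0.16 and 0.18. With 2 libraries against 2, an exact permutation test of a single ratio cannot reach 0.05, so these differences are given as values.

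Per length, which allows levels of different genes to be set beside each other, the order of the 7 genes differed between conditions. Levels were divided by the length-like number deposited with each model and are given as CPM per 100 units. In blue light HB-1 came first at 40.0 ± 6.9 (SD, n = 2), followed by HAT2 at 13.5 ± 0.26, HAT1 at 12.6 ± 1.1 and HB52 at 12.4 ± 5.5, and then by HAT3 at 3.20 ± 0.050, ATHB2 at 2.45 ± 0.29 and ATHB4 at 0.816 ± 0.046. In the dark HB52, the shortest of the models, came first at 103 ± 3.3, followed by HB-1 at 46.9 ± 0.78, HAT2 at 21.3 ± 3.0, ATHB2 at 21.2 ± 0.92, HAT1 at 11.1 ± 0.37, HAT3 at 9.77 ± 2.2 and ATHB4 at 1.64 ± 0.044. In blue light the HB52 libraries, at 8.54 and 16.3, lay on either side of those of both HAT1 and HAT2. In the dark the libraries of HAT2 and ATHB2 overlapped, as did those of HAT1 and HAT3. The order within these pairs was thus not beyond their spread.

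Across the 48 HD-Zip genes listed, HB-1 was first and ATHB2 number 21 in footprints per length in blue light, while HB52 was first, HB-1 second and ATHB2 number 4 in the dark. HB52 was number 7 in blue light, a place that its libraries did not settle. At 8.54 and 16.3 CPM per 100 units, they enclosed those of ATML1 at number 3 and of ATHB6 at number 9. The order among HD-Zip genes in blue light was close at the top: the class I gene ATHB5, at 37.8 ± 3.4 CPM per 100 units, overlapped HB-1 in its libraries.

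The make-up of the class II footprints differed accordingly. ATHB2 supplied 5.29% (95% Wilson interval 3.69 to 7.54) and 5.95% (4.06 to 8.64) of the footprint counts of the 10 class II genes in the blue-light libraries, against 28.0% (24.7 to 31.5) and 24.5% (21.6 to 27.6) in the dark libraries. These intervals cover counting error only, since amplified reads are not independent molecules. HAT1 supplied 27.6% and 29.8% in blue light and 14.5% and 12.8% in the dark. HAT2 supplied 31.4% and 30.7% in blue light and 24.4% and 27.8% in the dark. The shares of a class depend on each other, so a higher share need not be a higher level. The HAT2 level was lower in blue light (log2 fold change -0.66 ± 0.13), and the HAT1 change did not pass. ATHB2 thus held the larger share of the pair with HAT1 in the dark and the smaller one in blue light. Class II as a whole had 116 and 122 CPM of footprints in blue light and 215 and 231 CPM in the dark.

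**Figure D3:**
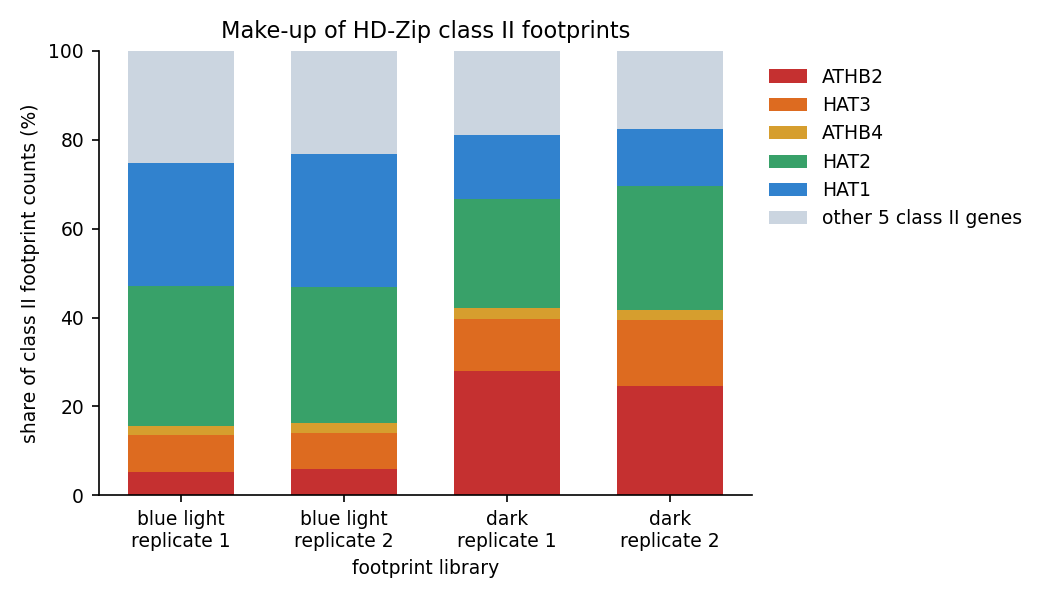
Share of each gene in the footprint counts of the 10 HD-Zip class II genes, by library, blue light left of dark. The ATHB2 share was 5.29% and 5.95% in blue light and 28.0% and 24.5% in the dark.

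Within class I, HB52 supplied 3.47% and 5.54% of the footprint counts of the 17 genes in blue light, against 29.6% and 28.2% in the dark. The HB-1 share was 25.5% and 27.3% in blue light and 23.7% and 23.2% in the dark, and the blue-light and dark values differed by a few percentage points, unlike those of HB52.

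The other HD-Zip genes moved in both directions. Of 41 listed, 25 could be tested in footprints, of which 5 rose and 6 fell, with a median log2 fold change of 0.053. Over all 15788 loci tested, 20.9% rose and 16.9% fell, so these counts do not set the other HD-Zip genes apart. Beyond the 5 listed here, class II had 1 called gene, HAT22, which fell by 0.71 ± 0.15 (adjusted p = 0.000376), and 1 that did not pass, HAT9, at 0.52 ± 0.37. HAT14, ATHB17 and ATHB18 had too few footprints. Among genes with a mean count of at least 50, the largest changes were in ATHB5, a class I factor of abscisic acid responses, which rose by 1.18 ± 0.11, in ATHB12, a class I factor induced by drought, which rose by 1.08 ± 0.20, in ATHB6, another class I factor of abscisic acid signalling, which fell by 1.05 ± 0.13, and in ANL2, a class IV factor of the epidermis, which rose by 0.98 ± 0.14. Their adjusted p-values were 3.44e-10, 8.90e-05, 1.33e-07 and 9.39e-07 (edgeR). Of the 5 class III genes, all tested, only PHB passed, which rose by 0.64 ± 0.17 (adjusted p = 0.00272). No other HD-Zip gene tested had a footprint log2 fold change below -1.05, so ATHB2, HB52 and HAT3 held the 3 lowest values of the family. The 7 genes were chosen with such values known, and no test was made of the list against the family.

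**Figure D4:**
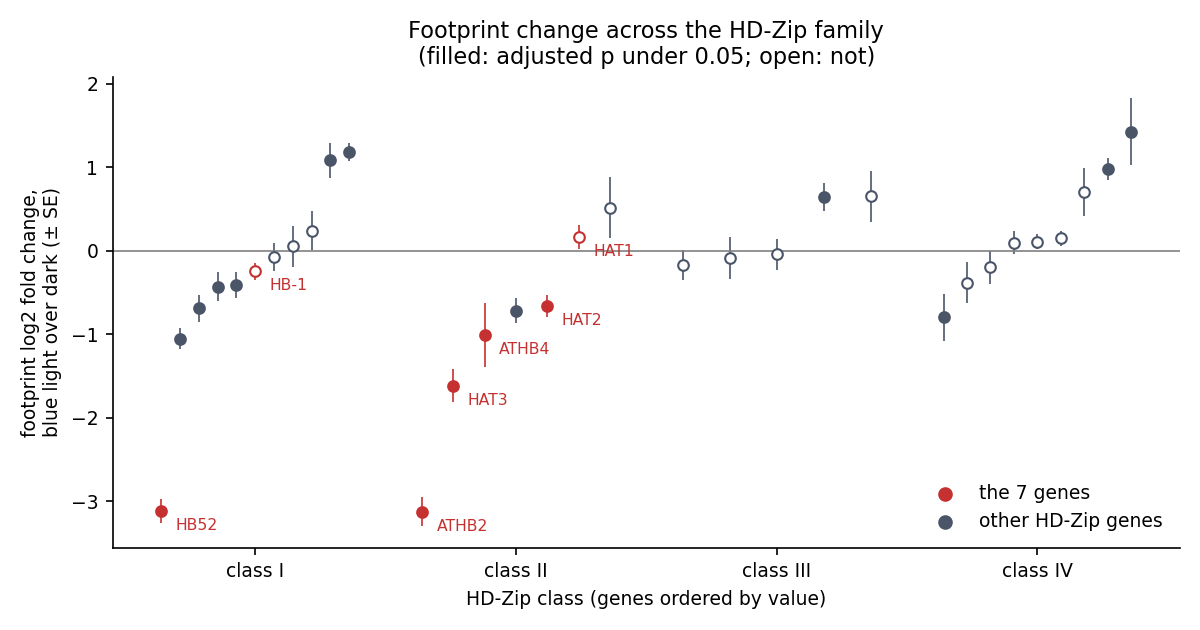
Footprint log2 fold change of blue light over dark, with its SE, for the HD-Zip genes tested, by class and ordered by value. The 7 genes are in red and labelled, and filled points passed an adjusted p of 0.05. ATHB2 and HB52 lie near -3, and the other HD-Zip genes between -1.05 and 1.43.

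The upstream factors of the shade response did not all move in 1 direction in footprints. Of the 5 phytochrome genes, all tested, PHYE and PHYB rose by 0.98 ± 0.19 and 0.45 ± 0.11, and PHYA, the main phytochrome of dark-grown seedlings, fell by 0.62 ± 0.07. Of the PIF genes, PIF5 rose by 2.08 ± 0.12 and PIF4 by 0.97 ± 0.18, PIF3 fell by 0.99 ± 0.12, PIF1 had a value of -0.23 ± 0.16 that did not pass (edgeR adjusted p = 0.269), and PIF7 had too few counts. Footprints on a PIF gene do not report the amount of PIF protein, which was not measured. PIF5 had 107 and 111 CPM in blue light and 24.9 and 26.7 CPM in the dark, so it was higher in the libraries in which ATHB2 was lower.

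Of the 10 other genes listed as induced by shade, all tested, 7 fell and 2 rose in footprints, with a median log2 fold change of -1.33. Among all loci tested, 16.9% fell and 20.9% rose. PIL1, a basic helix-loop-helix factor and shade marker, had 4.18 and 3.50 CPM in blue light and 42.4 and 42.8 CPM in the dark, a log2 fold change of -3.44 ± 0.21 (edgeR adjusted p = 4.03e-14). XTH15, a cell wall enzyme, changed by -3.42 ± 0.07, and PAR1, a small repressor of the shade response, by -2.63 ± 0.16 (adjusted p = 8.06e-25 and 3.11e-14). The auxin response genes IAA29 and IAA19 stood at -2.69 ± 0.27 and -1.55 ± 0.12. HFR1 and PAR2, which restrain the shade response, rose instead, by 0.36 ± 0.11 and 0.46 ± 0.17 (adjusted p = 0.00814 and 0.0356). The ATHB2 and HB52 values lay between those of XTH15 and IAA29, and those of ATHB4, HAT2, HB-1 and HAT1 lay above the list's median. Of the 5 auxin synthesis genes 2 could be tested, of which TAA1 fell by 0.90 ± 0.13 and YUC8 had a value of -0.43 ± 0.17 (adjusted p = 1.76e-06 and 0.0555).

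**Figure D5:**
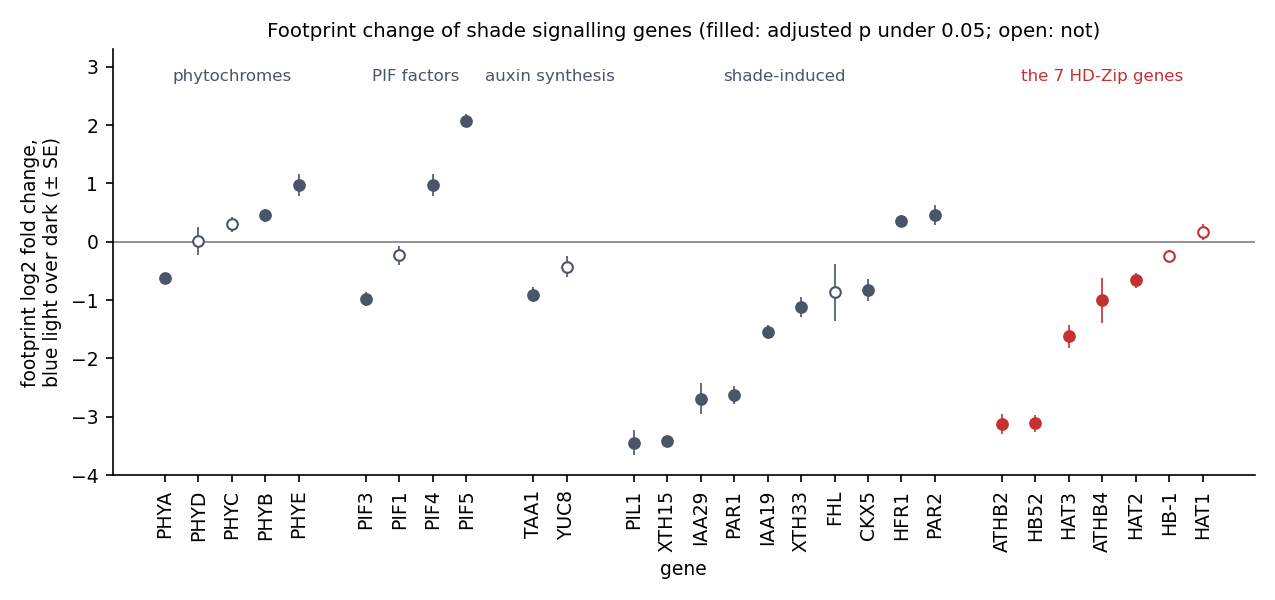
Footprint log2 fold change of blue light over dark, with its SE, for the tested genes of the shade list and the 7 HD-Zip genes (red). Filled points passed an adjusted p of 0.05. Shade-induced genes run from -3.44 for PIL1 to 0.46 for PAR2, and PIF5 lies at 2.08.

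Over the 4 footprint libraries, the loci whose pattern lay nearest to that of ATHB2 in centred log2 level, out of 4983 named loci of the nuclear genome with a mean footprint count of at least 50, were SNRK2.5 (0.173), ST2A (0.180), J20 (0.244), DYL1 (0.266) and SEN1 (0.273). SNRK2.5 is a protein kinase, ST2A a sulfotransferase, J20 a chloroplast co-chaperone, DYL1 a dormancy-associated protein, and SEN1 a dark-induced senescence marker. Their footprint log2 fold changes lay between -3.26 for DYL1 and -2.92 for ST2A. In mRNA, where ATHB2 could not be tested, ST2A, J20, DYL1 and SEN1 fell by 1.68, 1.78, 3.84 and 2.16 (edgeR adjusted p = 0.000213, 0.000668, 2.84e-05 and 0.000117), and SNRK2.5 had a value of -1.31 that did not pass (adjusted p = 0.551). The same measure for HB-1 gave CKB1, CYP709B2, GA3OX1, LARP1a and VPS60.2, at distances of 0.034 to 0.059, and none of these passed the footprint test. Among all loci tested in mRNA, 1.05% were called lower. Both sets of loci were picked by their footprint levels, so their footprint changes follow from the choice and are no separate result. Loci picked in this way are no random sample for mRNA either, and their mRNA values do not stand in for that of ATHB2.

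In mRNA, only HAT1, HB52 and HB-1 had enough counts to be tested, and none passed (edgeR adjusted p under 0.05), against 3.9% of the 7822 loci tested, 2.85% higher and 1.05% lower. Of these 3 genes, HB52 and HB-1 had an unadjusted p under 0.05. The DESeq2 Wald test also called 0, but it gave an adjusted p for HB-1 alone, at 0.271, and none for HB52 or HAT1. HB52 mRNA was counted 1 and 5 times in blue light and 14 and 25 times in the dark, a log2 fold change of -2.26 ± 0.73 (adjusted p = 0.093). Both blue-light libraries lay below both dark ones, as in 19.9% of all loci tested, while 42.4% did not overlap in either direction. Without blue-light mRNA replicate 2 the value was -3.90 and passed (adjusted p = 0.0175), and without replicate 1 it was -1.41 (adjusted p = 0.518).

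HB-1 mRNA was counted 19 and 16 times in blue light and 31 and 77 times in the dark, or 27.5 and 27.7 CPM against 39.2 and 90.4 CPM. The dark replicates differed by more than the lower of them differed from blue light. The log2 fold change was -1.23 ± 0.41 (adjusted p = 0.108). Without dark mRNA replicate 1 it was -1.76 and passed (adjusted p = 0.00182), and without dark mRNA replicate 2 it was -0.51 (adjusted p = 0.925). HAT1 mRNA was counted 14 and 11 times in blue light and 13 times in each dark library, and its log2 fold change of 0.31 ± 0.53 did not pass (adjusted p = 0.901). Of the other HD-Zip genes 16 were tested in mRNA, of which ATHB12 and ATHB13 rose, by 2.92 ± 0.56 and 1.37 ± 0.36 (adjusted p = 0.000896 and 0.0248), and none fell. Of the shade list 11 were tested, of which XTH15 fell by 2.70 ± 0.34 (adjusted p = 1.87e-06) and none rose. Over all loci tested in mRNA, 2.85% rose and 1.05% fell.

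The other 4 genes fell below the count minimum of the mRNA test. ATHB2, HAT3 and ATHB4 had at most 6 mRNA counts in any library, and HAT2 had up to 14. ATHB2 mRNA was counted 0 and 1 times in blue light and 2 and 5 times in the dark. The ratio of the summed counts, blue light over dark and scaled by library size, was 0.185 with an exact 95% counting interval of 0.0041 to 1.44. The interval holds 1, so these counts did not show a difference in ATHB2 mRNA. The same ratio was 0.199 (0.069 to 0.474) for HB52 and 0.419 (0.278 to 0.619) for HB-1, intervals that lie below 1 but cover counting error only and not the spread between libraries. HAT3 mRNA was counted 3 and 0 times in blue light and 2 and 6 times in the dark, with a ratio of 0.485 (0.083 to 2.02). HAT2 mRNA was counted 8 and 3 times in blue light and 9 and 14 times in the dark, with a ratio of 0.619 (0.272 to 1.32). ATHB4 mRNA was counted 0 times in both blue-light libraries, which allows up to 4.35 and 5.19 CPM, and 3 times in each dark library, which is no more than that limit. For ATHB4 the ratio of summed counts was 0 (0 to 1.10), an interval that just holds 1.

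Translational efficiency, the ratio of footprints to mRNA, could be tested for the same 3 genes, and none passed (interaction of assay and light over 8 libraries, edgeR), against 10.1% of the 6169 loci tested, 5.2% higher and 4.93% lower. The unadjusted p was under 0.05 for HB-1 alone, and the DESeq2 Wald test called 0. HB-1 is the gene of the 7 with a conserved uORF. Its footprints over mRNA, on a log2 scale with 0.5 CPM added to both, were 1.73 and 2.07 in blue light and 1.66 and 0.43 in the dark. Each value divides libraries of the same replicate number, a pairing that no label states. One dark value lay near the blue-light values and the other well below them. The change in efficiency was 0.87 ± 0.40 log2 units (adjusted p = 0.181). It was 1.37 and passed without dark mRNA replicate 1 (adjusted p = 0.0143), and it was 0.13 without dark mRNA replicate 2 (adjusted p = 0.891). The direction was the same in all 15 alternatives, and the size rested on the dark mRNA libraries.

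HB52 and HAT1 had efficiency values of -0.93 ± 0.93 and -0.28 ± 0.46, which did not pass (adjusted p = 0.588 and 0.773). The HB52 value was 0.81 without blue-light mRNA replicate 2 and -1.78 without blue-light mRNA replicate 1. In the shade list PIF5 efficiency rose by 1.45 ± 0.47 (adjusted p = 0.0487). Of the other HD-Zip genes, 14 were tested in efficiency, of which 3 class I genes fell and 1 class III gene rose. Over all loci tested in efficiency, 4.93% fell and 5.2% rose. The largest with enough counts were ATHB20 at -1.74 ± 0.41 and ATHB13 at -1.58 ± 0.35 (adjusted p = 0.00588 and 0.00343).

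The locus numbered directly after HB-1 in the files, AT3G01472, was singled out after its counts were seen. It is a very short model, with a length of 19 against 263 for HB-1, and the reference table used for names gives it no entry. What it encodes, and whether its reads come from the same mRNA as those of HB-1, is not given in the sources used here, so its values and those of HB-1 may not be independent. It had 165 and 141 footprint counts in blue light and 125 and 174 in the dark. It had 2 and 0 mRNA counts in blue light and 1 in each dark library, and per unit of length these were 1.46 and 0 times the HB-1 mRNA counts in blue light and 0.447 and 0.18 times in the dark, ratios that rest on at most 2 counts. By the same measure its footprint counts were 5.45 and 4.82 times those of HB-1 in blue light and 4.48 and 5.79 times in the dark. There were 2.54 and 2.87 HB-1 footprints for each of its footprints in blue light, and 3.09 and 2.39 in the dark, so the conditions overlapped. Its footprint log2 fold change was -0.25 ± 0.14 (edgeR adjusted p = 0.149), beside -0.24 ± 0.10 for HB-1. In the reference table HB-1 overlaps 3 other genes, of which only MBD9 is listed in the files, and the other 6 genes overlap none. Counting is not stated to use strand, so reads from HB-1 and MBD9 may not have been told apart.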

How the data were processed

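Each deposited file gives raw read counts for the models of 1 library, without normalization by the authors. Per the submitters' processing notes, CASAVA 1.8, Bowtie2 2.1.0, TopHat2 2.0.9 and TAIR10 were used, with no role given. The counting tool and the treatment of reads that match several places are not given in the sources used here. A length-like number deposited beside each count, identical in all files, was used to take the longest model per locus. All 6285 models without it had 0 counts.

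Blue light was compared with dark in mRNA, in footprints and in efficiency (the assay by light interaction), with edgeR 4.0.16 in R 4.3.3: TMM, a count minimum of 10 in filterByExpr, the quasi-likelihood F-test, two-sided, Benjamini-Hochberg adjustment over all loci tested, called under 0.05. The SE is the absolute log2 fold change divided by the square root of F. DESeq2 1.42.0 was an alternative. The test was checked on simulated counts. Alternatives were other scaling, no count minimum, nuclear loci, the first model, a replicate block and leaving out each library.

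The members, lists and tests were chosen with earlier results of these data known. The 7 genes are always named. Of other lists, at most 4 called loci per test with a mean count of at least 50 and the largest change are named, with the lists' counts. HAT22, HAT9, PHB, ATHB12 and ATHB13 in mRNA, the further shade genes with values and AT3G01472 go beyond this rule and were named after their values were seen. The likeness measure is the Euclidean distance of log2(CPM + 0.5), centred per locus. Symbols came from RefSeq for TAIR10.1 by locus tag (26719 loci matched, all 7 genes among them). No coordinates and no sequences are printed.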

Additional observations from a re-analysis of the deposited data

How the results depend on the processing

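Of 143 values of the 7 genes under alternatives, 132 kept their direction and their side of the threshold, 6 lost a call (all ATHB4 footprints), 4 gained one (HB-1 in all 3 comparisons and HB52 in mRNA, each without 1 library) and 1 changed sign (HB52 efficiency, 0.81 without blue-light mRNA replicate 2, with a leave-one-out range of -1.78 to 0.81). ATHB2, HB52, HAT3 and HAT2 footprints passed in all 10 alternatives, at -3.23 to -2.99, -3.59 to -2.66, -1.81 to -1.36 and -0.78 to -0.50. Of the 11 values that changed, 7 were footprint values; ATHB4 rests on 9 to 17 footprint counts per library.

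Leaving out each library in turn gave 0 to 1 of the 7 genes called in mRNA, all lower, 4 to 5 in footprints and 0 to 1 in efficiency. Over all loci it gave 49 to 128 called lower in mRNA, against 82, and in efficiency 329 to 643 called, 201 to 352 higher and 128 to 343 lower, against 625, 321 and 304. The DESeq2 Wald test called 54 loci lower in mRNA, and in footprints 3264, of which 2078 higher and 1186 lower, against 5975, 3304 and 2671. The cause was not tested.

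The replicate numbers share no stated origin, and deviations of libraries with the same number were uncorrelated (r = 0.023 in mRNA and 0.0081 in footprints, across loci). Between footprint and mRNA libraries of the same number, r was -0.0016 in blue light and -0.0021 in the dark. With the replicate number as a block, 285, 6003 and 489 loci were called in mRNA, footprints and efficiency, and of the 7 genes 4 were called in footprints, since ATHB4 reached an adjusted p of 0.0515; no other call on them changed. A block within each light condition, chosen after seeing the data, called 200 loci lower in efficiency.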
